A study of Homo sapiens with 14 samples.

Results

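The NF-kappaB genes described here are 10 inhibitors, subunits and targets that were followed through the response of a leukemia cell line to a glucocorticoid. They are the inhibitors NFKBIA, NFKBIE and TNFAIP3, the subunits NFKB1, NFKB2, REL, RELA and RELB, and the targets BIRC3 and CCL5. Members were found by name, as genes with at least 1 array probe set annotated with that gene alone. This gave 9 of the 10 genes, measured by 15 of 19070 such probe sets, out of 11963 genes in all. BIRC3, an inhibitor of apoptosis with ubiquitin ligase activity, was not analysed here because no probe set carried its name alone.

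The cells were RS4;11, an established human line of B-cell precursor acute lymphoblastic leukemia with a rearranged KMT2A gene. All cultures were first kept for 48 h in charcoal-dextran-stripped serum to remove hormone, so the untreated cells are hormone-starved cells and not cells in full serum. RNA was measured on 14 arrays of 1 line, with 4 arrays of untreated cells (0 h), 5 after 8 h and 5 after 24 h of 10 nM dexamethasone, a synthetic ligand of the glucocorticoid receptor (GR). A further untreated array, set aside by the authors at quality control, was not analysed here. No untreated cells were collected at 8 h or 24 h, so dexamethasone and time in culture cannot be told apart.

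NF-kappaB is a family of dimeric transcription factors built from RELA, RELB, REL and the products of NFKB1 and NFKB2. In resting cells the IkappaB proteins, among them the products of NFKBIA and NFKBIE, hold the dimers in the cytoplasm until signals from cytokine, Toll-like or antigen receptors lead to their degradation. NFKBIA and TNFAIP3 are themselves NF-kappaB targets and close feedback loops, and ligand-bound GR is a well-known antagonist of NF-kappaB-driven inflammatory genes such as CCL5.

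The promoters of NFKBIA and TNFAIP3, the inhibitor genes whose transcripts rose, are shown as the 250 bases before the RefSeq start in build GRCh38.p14, read 5′ to 3′ on the strand of the gene. The window of NFKBIA is chr14:35404750-35404999 on the minus strand and that of TNFAIP3 is chr6:137867009-137867258 on the plus strand. Capitals mark matches to the NF-kappaB consensus, searched on both strands with overlapping matches counted.
NFKBIA: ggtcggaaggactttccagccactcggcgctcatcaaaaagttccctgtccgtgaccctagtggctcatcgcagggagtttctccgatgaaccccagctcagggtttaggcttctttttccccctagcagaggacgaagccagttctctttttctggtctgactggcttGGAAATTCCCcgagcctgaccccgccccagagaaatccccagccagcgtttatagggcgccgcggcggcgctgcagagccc
TNFAIP3: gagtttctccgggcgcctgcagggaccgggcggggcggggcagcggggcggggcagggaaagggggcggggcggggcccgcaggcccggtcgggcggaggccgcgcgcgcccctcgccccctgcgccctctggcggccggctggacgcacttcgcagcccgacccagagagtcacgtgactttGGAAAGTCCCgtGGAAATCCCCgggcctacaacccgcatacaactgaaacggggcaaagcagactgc
The NFKBIA window held 1 match, 81 to 72 bases before the start, and the TNFAIP3 window held 2 matches, at 67 to 58 and 55 to 46 bases before the start, all on the strand opposite to the gene. Of the measured members, 6 had a promoter in the table and 5 of these had a match in at least 1 window, namely NFKBIA, TNFAIP3, NFKB1, NFKB2 and REL. These 6 genes have 10 windows, of which 6 held a match. Among the matches of the subunit genes were GGGAATTTCC (NFKB1, 49 to 40 bases before the start), GGGAAATTCC (REL, 47 to 38 bases) and GGGACTTTCC (NFKB2, 21 to 12 bases), and NFKB2 had matches in 2 of its 3 windows. Across all 35116 promoter windows of the same length, 9.96% held the consensus. The core of the glucocorticoid response element, ACANNNTGT on both strands, was in 4.61% of all windows and in none of those of the members. These are matches of letters, not measured binding sites.

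The deposited values are log2 expression, so a difference of 1 is a doubling. The medians of the 14 arrays lay between 6.03 and 6.11. A date and letter in the sample labels divide the arrays into 5 runs on 4 dates, called days 1 to 4 here, without saying what was done on those dates. Runs 1 and 2 share day 1, runs 1 to 4 hold 1 array of each group, and run 5 holds 1 array at 8 h and 1 at 24 h with no untreated array. Of 12 markers of B-cell precursors, 10 were measured, and their mean level was 9.44 to 9.55 in untreated cells, 8.91 to 9.18 at 8 h and 9.11 to 9.43 at 24 h. At a limma adjusted p below 0.05 against untreated cells, 0 of these 10 were higher and 3 lower at 8 h (30%, beside 19.7% of all genes). At 24 h 4 were higher and 4 lower (80%, beside 40.5% of all genes), and their part in the results was not tested. The means of the other marker lists, for T and NK cells, monocytes and granulocytes, and erythroid cells and platelets, stayed between 3.87 and 4.76 in every array. Of the 8 monocyte and granulocyte markers, 2 passed at 24 h against untreated cells (25%, beside 40.5% of all genes). These were LYZ, higher (adjusted p = 0.0235), and CSF1R, lower (-0.33, adjusted p = 0.02), and their part in the results was not tested. For LYZ the groups overlapped. No size is given for it, since its untreated mean of 4.76 was below 5, the log2 value used here to mark dim signals.

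After 8 h of dexamethasone NFKBIA was 2.66-fold higher than in untreated cells, and RELB and CCL5 were lower. These were 3 of the 9 measured members, 1 higher and 2 lower, at a limma adjusted p below 0.05. Of all genes 19.7% passed in either direction, 8.69% higher and 11% lower. The same 3 members had groups that did not overlap, as did 18.2% of all genes. The remaining inhibitors and subunits lay between -0.12 and 0.07 on the log2 scale, with adjusted p between 0.348 and 0.912. The RNA came from whole cultures, so a lower signal from fewer expressing cells cannot be told apart from less RNA per cell. The sources used here do not state whether each replicate was a culture of its own, and the p-values therefore cover the spread between these arrays and possibly no more.

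After 24 h NFKBIA and TNFAIP3 were higher and CCL5 was lower than in untreated cells, by 3.25-fold, 2.02-fold and 5.12-fold. The signal of CCL5 was low at 24 h, so the size of its fall is uncertain. Of the 9 members 3 passed, beside 40.5% of all genes (19.5% higher and 20.9% lower), and these 3 had no overlap, beside 35.3% of all genes. Both comparisons with untreated cells use the same 4 control arrays. Between 24 h and 8 h, 4 members passed, with NFKBIA, TNFAIP3 and RELB higher at 24 h and CCL5 lower, beside 28.3% of all genes (14.6% higher and 13.7% lower). Of these, NFKBIA, TNFAIP3 and CCL5 had no overlap between 24 h and 8 h, as had 22.4% of all genes. The members that passed made up 33.3%, 33.3% and 44.4% of those measured in the 3 comparisons, and with 9 genes nothing is read from the distance of these shares to the background.

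**Figure D1:**
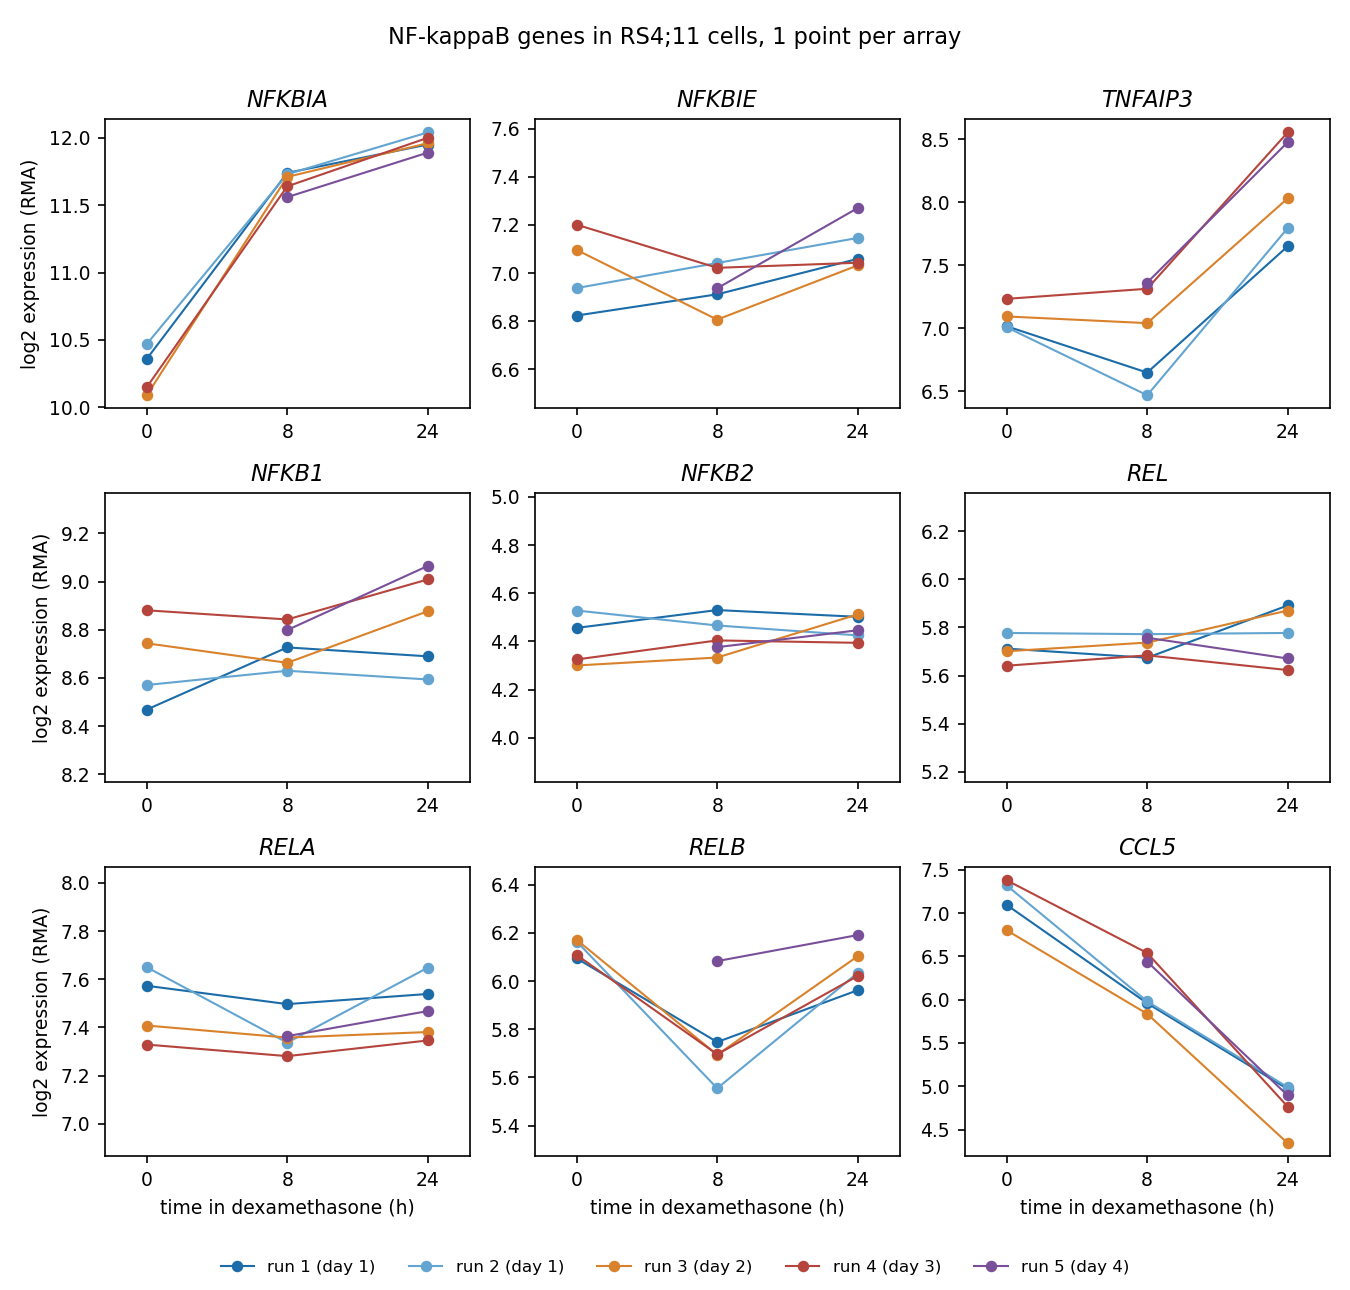
Log2 expression (vertical axis, 1 panel per gene, with its own range) against hours in dexamethasone for the 9 measured genes, with 1 point per array and lines joining arrays of the same run. NFKBIA lies above 11.5 in all treated arrays and CCL5 falls in every run, while RELB is lowest at 8 h and TNFAIP3 at 24 h lies above all its other arrays.

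Among the inhibitors, NFKBIA, which encodes IkappaB-alpha, had log2 levels of 10.36, 10.47, 10.09 and 10.15 in untreated cells of runs 1 to 4. In runs 1 to 5 its levels were 11.74, 11.73, 11.71, 11.64 and 11.56 at 8 h, and 11.95, 12.04, 11.96, 12.00 and 11.89 at 24 h. All 5 arrays at 8 h exceeded all untreated arrays, and all 5 arrays at 24 h exceeded all arrays at 8 h. The log2 fold change was 1.41 (SE 0.08, limma adjusted p = 1.36e-09) at 8 h and 1.70 (SE 0.08, adjusted p = 3.02e-11) at 24 h against untreated cells. Most of the rise was present by 8 h, since the further difference between 24 h and 8 h was 0.29 (SE 0.07, adjusted p = 0.00501), and it was positive in 5 of 5 runs. The spread of NFKBIA was small in treated cells, with an SD of 0.05 at 24 h (n = 5) and 0.08 at 8 h (n = 5), against 0.18 in untreated cells (n = 4). The untreated values were split by day, with 10.36 and 10.47 on day 1 and 10.09 and 10.15 on days 2 and 3.

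TNFAIP3 encodes A20, a ubiquitin-editing enzyme that shuts off signaling upstream of the IkappaB kinase. Unlike NFKBIA, it passed only in the comparisons with 24 h. Its log2 levels were 7.02, 7.01, 7.09 and 7.23 in untreated cells of runs 1 to 4. The 8 h arrays of runs 1 to 5 had 6.65, 6.47, 7.04, 7.31 and 7.36, and the 24 h arrays had 7.65, 7.80, 8.03, 8.56 and 8.48. The arrays at 8 h lay on either side of the untreated ones, whereas every array at 24 h lay above all others. At 8 h the log2 fold change was -0.12 (SE 0.20, adjusted p = 0.775, 95% interval -0.55 to 0.30). At 24 h it was 1.01 against untreated cells (SE 0.20, adjusted p = 0.000562) and 1.14 against 8 h (SE 0.19, adjusted p = 0.000234), and it was positive in 4 of 4 and 5 of 5 runs.

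The 8 h levels of TNFAIP3 were lower in the arrays of day 1 than in those of days 2 to 4. Within day 1, which holds only runs 1 and 2, TNFAIP3 at 8 h was 0.45 log2 units below untreated cells (-0.45, adjusted p = 0.011). Within days 2 to 4 the difference was 0.08 (adjusted p = 0.789). A test of the difference between days, chosen after these values were seen, gave 0.53 (SE 0.21, adjusted p = 0.164) and so did not pass. The rise between 24 h and 8 h was 1.17 on day 1 and 1.12 on days 2 to 4, with a difference of -0.05 (SE 0.20, adjusted p = 0.951). At 24 h the increase over untreated cells was 0.71 on day 1 and 1.19 on days 2 to 4, and this difference of 0.48 (SE 0.21) did not pass either (adjusted p = 0.295).

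NFKBIE, which encodes IkappaB-epsilon, did not pass in any comparison. Its levels spanned 6.82 to 7.20 in untreated cells, 6.81 to 7.04 at 8 h and 7.03 to 7.27 at 24 h. The 24 h arrays were above their 8 h partners in 5 of 5 runs, by 0.17 on average (SE 0.08), with an adjusted p of 0.128. The log2 fold change of this second IkappaB gene against untreated cells was -0.07 (95% interval -0.24 to 0.10) at 8 h and 0.10 (95% interval -0.08 to 0.27) at 24 h, and the changes of NFKBIA lie outside both intervals.

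**Figure D2:**
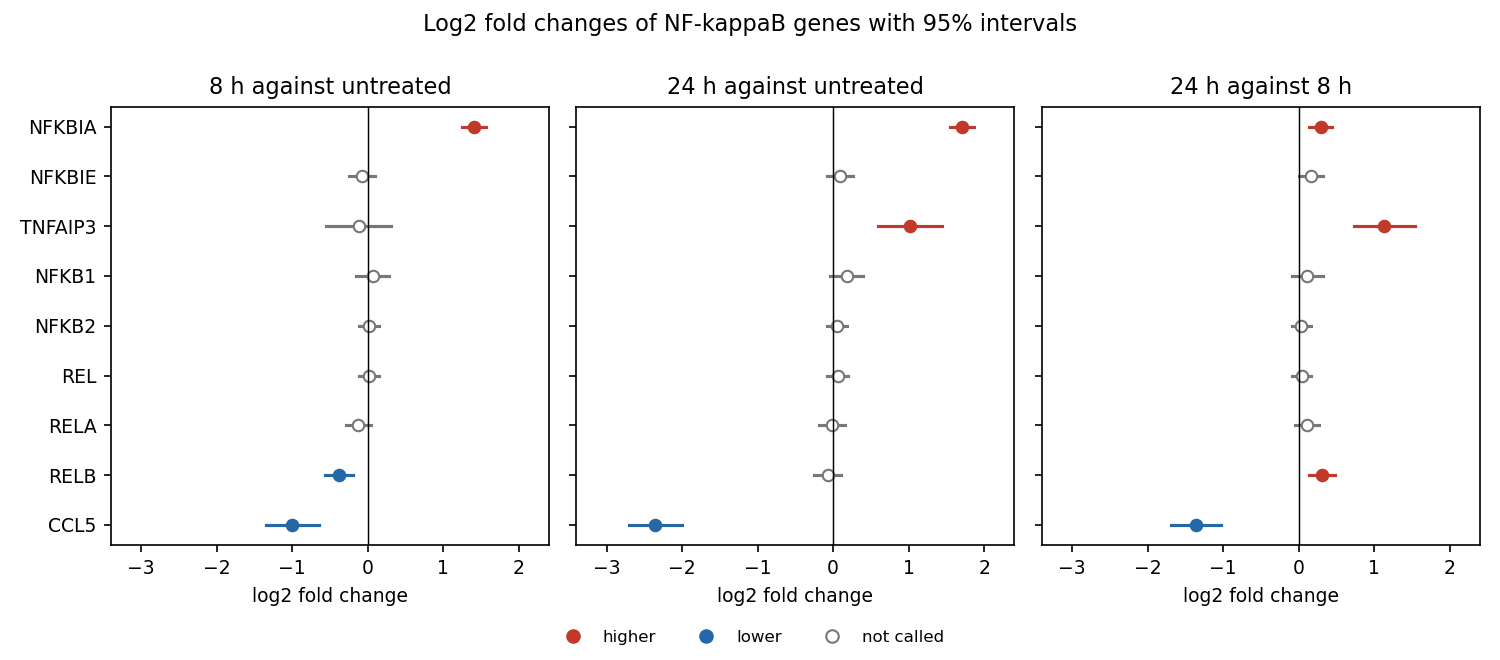
Log2 fold change with its 95% interval (horizontal axis) for the 9 measured genes in the 3 comparisons, with filled points for genes that passed at an adjusted p below 0.05. NFKBIA stands at 1.41 and 1.70 and CCL5 at -0.998 and -2.36 against untreated cells, TNFAIP3 passes only with 24 h on top, and the intervals of NFKB1, NFKB2, REL and RELA include 0 throughout.

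Of the 5 subunit genes, RELB alone passed in a comparison when probe sets were averaged per gene. RELB partners mainly with the p52 product of NFKB2 in the alternative NF-kappaB pathway. Its levels were 6.09, 6.16, 6.17 and 6.11 in untreated cells of runs 1 to 4. At 8 h they were 5.75, 5.56, 5.69, 5.70 and 6.08, and at 24 h they were 5.96, 6.03, 6.10, 6.02 and 6.19, in runs 1 to 5.

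The 8 h arrays of RELB thus lay below all untreated arrays, though the one of run 5, which has no untreated partner, was at 6.08 just under the lowest untreated array at 6.09. The log2 fold change at 8 h was -0.38 (SE 0.09, adjusted p = 0.00455), and it was negative in 4 of 4 runs. At 24 h RELB lay near the untreated level, at -0.07 (SE 0.09, adjusted p = 0.576), and 0.31 above 8 h (SE 0.08, adjusted p = 0.00869, 5 of 5 runs), with overlapping groups. Within days 2 to 4, where 2 runs have an untreated array, neither difference passed, at -0.32 (adjusted p = 0.0815) for 8 h against untreated cells and 0.28 (adjusted p = 0.0681) for 24 h against 8 h.

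NFKB1, the gene of p105 and p50, had levels of 8.47 to 8.88 in untreated cells, 8.63 to 8.84 at 8 h and 8.59 to 9.06 at 24 h. Its log2 fold change was 0.07 (SE 0.10) at 8 h and 0.18 (SE 0.10, adjusted p = 0.19) at 24 h against untreated cells. RELA, which encodes the activating subunit p65, ranged from 7.33 to 7.65 in untreated cells, from 7.28 to 7.50 at 8 h and from 7.35 to 7.65 at 24 h. At 8 h RELA was below its untreated partner in 4 of 4 runs, at -0.12 (SE 0.08, adjusted p = 0.348), and at 24 h the difference was -0.01 (SE 0.08). REL, the gene of the lymphoid subunit c-Rel, differed by 0.02 (SE 0.06) at 8 h and 0.06 (SE 0.06) at 24 h, as the mean of a brighter probe set and a dim one (206035_at, 3.76 to 4.27). The 95% intervals of these 3 genes in both comparisons with untreated cells lay between -0.29 and 0.40, so a change of the size seen for NFKBIA or CCL5 falls outside them, while a small one does not.

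NFKB2, the gene of p100 and p52, was read by 3 probe sets that differed. Averaged, they gave 0.02 (SE 0.06) at 8 h and 0.05 (SE 0.06, adjusted p = 0.564) at 24 h. The probe set 207535_s_at had values of 5.30, 5.38, 5.32 and 5.25 in untreated cells of runs 1 to 4, and of 5.46, 5.29, 5.28, 5.32 and 5.33 at 8 h and 5.46, 5.45, 5.63, 5.68 and 5.63 at 24 h in runs 1 to 5. All of its 24 h values exceeded all untreated values, and it was higher at 24 h by 0.26 against untreated cells (SE 0.07, adjusted p = 0.00609 over all probe sets) and by 0.23 against 8 h (SE 0.06, adjusted p = 0.0129). The probe sets 209636_at and 211524_at of NFKB2 stayed between 3.66 and 4.24 on every array, below the log2 value of 5 that was used to mark dim signals, and did not pass. Whether NFKB2 counts as changed at 24 h therefore rests on how its probe sets are combined.

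For the other genes with more than 1 probe set, the probe sets of a gene agreed on whether the gene passed. TNFAIP3 gave 0.94 (SE 0.26) and 1.09 (SE 0.16) at 24 h against untreated cells with 202643_s_at and 202644_s_at, and neither passed at 8 h. In untreated cells of runs 1 to 4, 202643_s_at had 6.12, 6.18, 6.40 and 6.71, and 202644_s_at had 7.92, 7.83, 7.78 and 7.76. Neither probe set of REL nor of RELA passed in any comparison.

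**Figure D3:**
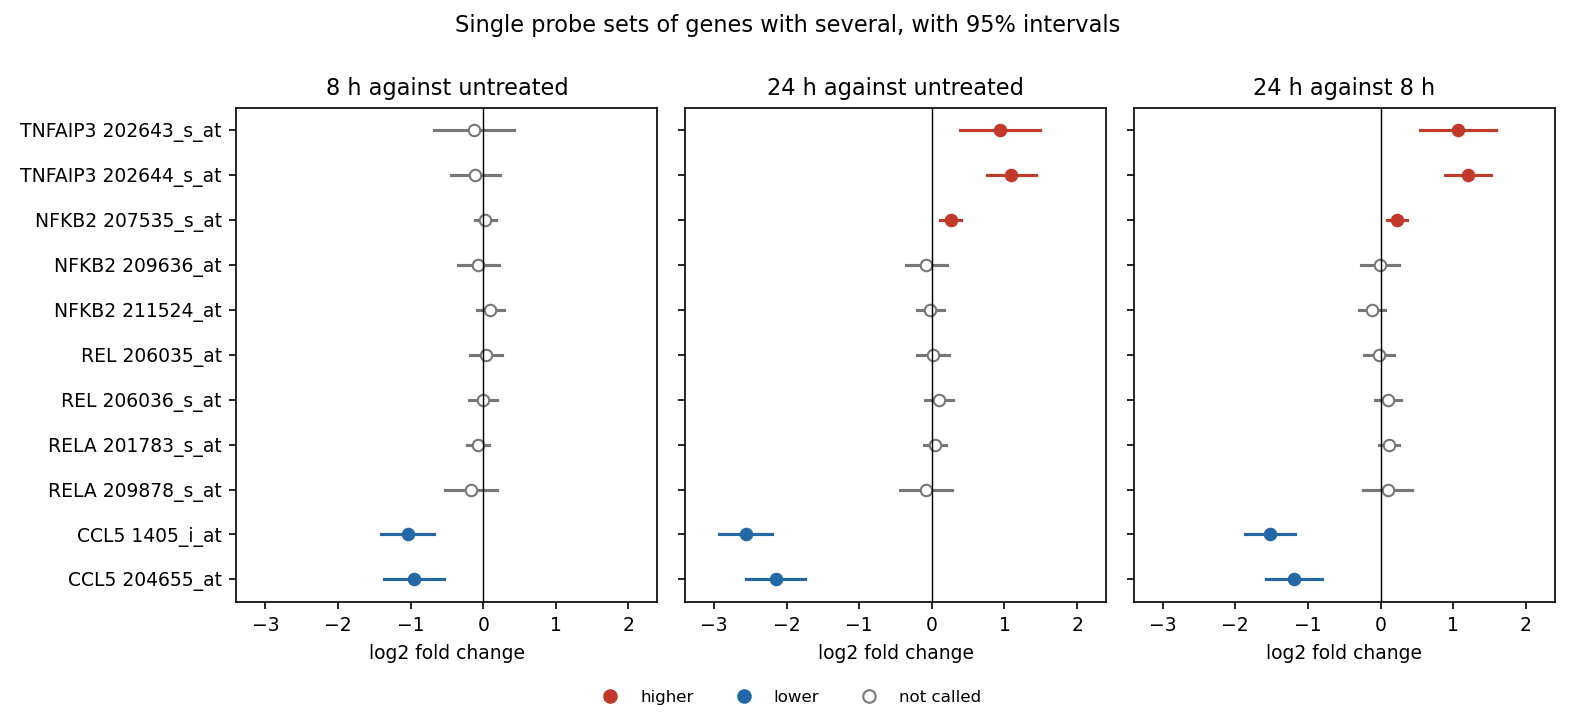
Log2 fold change with its 95% interval (horizontal axis) for each probe set of the 5 genes that have several, in the 3 comparisons, with filled points for those that passed at an adjusted p below 0.05. The probe sets of TNFAIP3 and those of CCL5 lie on the same side at 24 h, whereas of the 3 for NFKB2 only 207535_s_at passes, at 0.26 and 0.23.

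The target CCL5, a chemokine that attracts T cells and monocytes and a standard NF-kappaB readout, fell at both times. Its log2 levels were 7.09, 7.32, 6.80 and 7.38 in untreated cells of runs 1 to 4. In runs 1 to 5 they were 5.96, 5.98, 5.84, 6.54 and 6.44 at 8 h, and 4.97, 4.99, 4.34, 4.77 and 4.89 at 24 h. No array of one time overlapped with another time. The log2 fold change was -0.998 at 8 h (SE 0.17, adjusted p = 0.000368) and -2.36 at 24 h (SE 0.17, adjusted p = 7.62e-09) against untreated cells, and -1.36 at 24 h against 8 h (SE 0.16, adjusted p = 6.73e-06). Its probe set 1405_i_at gave -1.04 (8 h) and -2.56 (24 h) against untreated cells, and 204655_at gave -0.95 (8 h) and -2.15 (24 h).

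At 24 h the mean of CCL5, 4.79 ± 0.27 (SD, n = 5), was below the log2 value of 5 that marks dim signals, against 7.15 ± 0.26 in untreated cells (n = 4). Since the values carry no detection call, the size of the fall at 24 h is uncertain. CCL5 is also made by T and NK cells, so the markers of those cells were set beside it. The mean of the 11 markers was 4.61 to 4.76 in untreated cells, 4.56 to 4.73 at 8 h and 4.57 to 4.71 at 24 h. In limma 0 of 11 passed against untreated cells at 8 h or 24 h, beside 19.7% and 40.5% of all genes. At 24 h against 8 h, 1 of 11 passed (9.09%, beside 28.3% of all genes). This was NKG7, which was higher (0.38, adjusted p = 0.00143) where CCL5 was lower. At 8 h against untreated cells NKG7 was lower, as CCL5 was, but did not pass (-0.23, adjusted p = 0.0589). The part of T and NK cells in the fall of CCL5 was not tested. The T-cell receptor genes CD3D, CD3E and CD3G averaged between 3.83 and 4.57 in every group and were thus dim. NKG7 and PRF1, genes of cytotoxic granules, were the brightest of the list, with means of 8.62, 8.39 and 8.77 for NKG7 and 6.77, 6.74 and 6.68 for PRF1 in untreated cells, at 8 h and at 24 h.

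As a log2 difference from the untreated array of the same run, CCL5 lay between -1.34 and -0.84 at 8 h and between -2.61 and -2.13 at 24 h in the 4 runs with an untreated array. NFKBIA lay between 1.26 and 1.62 at 8 h and between 1.56 and 1.86 at 24 h in the same runs. For both genes the smallest difference at 24 h was on day 1, yet neither passed a test of a difference between days (adjusted p = 0.247 for NFKBIA and 0.843 for CCL5 at 24 h). No sign differed between runs for either gene in any comparison.

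The genes whose levels ran most alike over the 14 arrays were found by Pearson correlation for 2 members, as a description, since all genes share these arrays and the 3 times. For NFKBIA they were ISG20 (r = 0.996), TSC22D3 (r = 0.993), DDIT4 (r = 0.993), LILRA2 (r = 0.993) and CTNNBL1 (r = 0.992), each of which was already higher at 8 h, by 0.92 to 2.29 on the log2 scale. For CCL5 they were OSBPL1A (r = 0.986), TRAP1 (r = 0.985), DPH5 (r = 0.984), PAICS (r = 0.983) and TUFM (r = 0.983). These fell further at 24 h than at 8 h, as CCL5 did, with PAICS, an enzyme of purine synthesis, at -0.94 and -1.87. For both members such a like course over time follows from the choice of genes by correlation.

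Around the members, 88 of 101 further genes of the pathway were measured. At 8 h 12 were higher and 8 lower than in untreated cells, which is 22.7% beside 19.7% of all genes. At 24 h 28 were higher and 11 lower, which is 44.3% beside 40.5%, and between 24 h and 8 h 21 were higher and 5 lower, which is 29.5% beside 28.3%. Its median log2 fold change was 0.01 at 8 h and 0.03 at 24 h, beside -0.02 for all genes at both times. The count at 8 h moved with the model, and with the run as a block 30 genes passed, which is 34.1% beside 27.1% of all genes in the same fit.

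Receptors and ligands, with 16 of 19 measured, had 1 gene higher and 4 lower at 8 h (31.2% beside 19.7% of all genes), and 1 higher and 5 lower at 24 h (37.5% beside 40.5%), against untreated cells. The interleukin-1 receptor gene IL1R1 and its ligand gene IL1B moved in opposite directions. IL1R1 averaged 4.62 ± 0.23 at 8 h and 5.99 ± 0.05 at 24 h (SD, n = 5 each), against 3.50 ± 0.05 in untreated cells (n = 4), with no overlap (adjusted p = 2.53e-07 and 3.83e-12). Since its untreated level was dim and the values carry no detection call, no size is given for this rise. IL1B averaged 6.22 ± 0.36 and 6.10 ± 0.28 at 8 h and 24 h, against 8.39 ± 0.57 in untreated cells (-2.17 and -2.29, adjusted p = 4.61e-06 and 5.75e-07), and no further fall passed, with -0.12 between 24 h and 8 h (adjusted p = 0.788). TNFRSF13B, a receptor for BAFF and APRIL, was lower at 24 h (-0.50, adjusted p = 0.00139). The related receptor gene TNFRSF17 also passed as lower at 24 h (adjusted p = 6.51e-05), but it was dim in all groups and no size is given.

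Adaptors and kinases, with 22 of 27 measured, had 1 gene higher and 1 lower at 8 h (9.09% beside 19.7% of all genes), and 8 higher and 3 lower at 24 h (50% beside 40.5%). Of these 22 genes 1 was dim in every group (4.55%, beside 34.1% of all genes), so the shares are not like for like. TRAF3, which keeps the kinase of the alternative pathway low, fell by 0.53 at 8 h and by 0.93 at 24 h (adjusted p = 0.000379 and 2.69e-07), while BIRC2, a ubiquitin ligase closely related to BIRC3, rose by 0.44 and 0.69 (adjusted p = 0.00034 and 7.55e-07). At 24 h BCL10 (0.36, adjusted p = 0.000194) and TAB2 (0.56, adjusted p = 0.000521), adaptors downstream of antigen and cytokine receptors, were higher as well. UBE2N, a ubiquitin-conjugating enzyme of the same step, was lower (-0.38, adjusted p = 0.000931).

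Of the further inhibitors and feedback regulators, 13 of 16 were measured, with 3 higher and 1 lower at 8 h (30.8% beside 19.7% of all genes). At 24 h 8 were higher and 1 lower, which is 69.2% beside the 40.5% of all genes. Of the 13 genes 2 were dim in every group (15.4%, beside 34.1% of all genes), so these shares are not like for like. The list was also chosen with earlier results known, and nothing is read from the distance of 69.2% to 40.5%. The median log2 fold change of these 13 genes was 0.22 at 24 h. Among them were the A20 partners TAX1BP1 and TNIP2, at 0.71 and 0.56 at 24 h (adjusted p = 5.58e-07 and 4.14e-06), of which TNIP2 had also passed at 8 h (0.28, adjusted p = 0.00829). PDLIM2, which promotes the degradation of nuclear RELA, stood at 0.01 at 8 h and at 0.64 at 24 h (adjusted p = 3.72e-05), and like TNFAIP3 it passed only in the comparisons with 24 h. The repressor NKRF went the other way, at -0.30 and -0.61 (adjusted p = 0.0235 and 2.36e-05).

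The further targets, with 32 of 34 measured, mostly did not pass. At 24 h 7 were higher, 2 lower and 23 did not pass (28.1% beside 40.5%), and their median was 0.01. Of these 32 genes 18 were dim in every group (56.2%, beside 34.1% of all genes), where a missing call does not show a missing change. GADD45B, a stress-response gene, rose by 0.40 at 8 h and 0.81 at 24 h (adjusted p = 0.000549 and 7.01e-08), and KLF6, a transcription factor, by 0.57 and 0.86 (adjusted p = 0.000194 and 7.37e-07). ICAM1, an adhesion molecule, and CFLAR, an inhibitor of caspase 8, were higher at 24 h, by 0.48 and 0.64 (adjusted p = 4.04e-05 and 1.37e-05). CD83, a surface marker of activated lymphoid cells, was lower at 24 h, like CCL5 (-0.84, adjusted p = 5.47e-06).

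The last list holds the GR gene and 4 well-known glucocorticoid-induced genes, some of which restrain inflammatory signaling. At both times 4 of the 5 were higher (80%), beside 8.69% of all genes higher at 8 h and 19.5% at 24 h. Since most of the list was chosen as glucocorticoid-induced, nothing is read from this share. TSC22D3, whose product GILZ binds NF-kappaB, rose by 2.29 at 8 h and 2.74 at 24 h, FKBP5, a chaperone of GR, by 2.49 and 2.79, ZFP36, which promotes the decay of cytokine mRNAs, by 0.44 and 0.94, and the GR gene NR3C1 by 0.65 and 0.83, with adjusted p of at most 0.000293. DUSP1, a phosphatase of stress kinases, stood at -0.15 and 0.00 (adjusted p = 0.402 and 0.996), with levels of 8.37 ± 0.19 at 8 h and 8.53 ± 0.12 at 24 h, against 8.52 ± 0.21 in untreated cells.

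**Figure D4:**
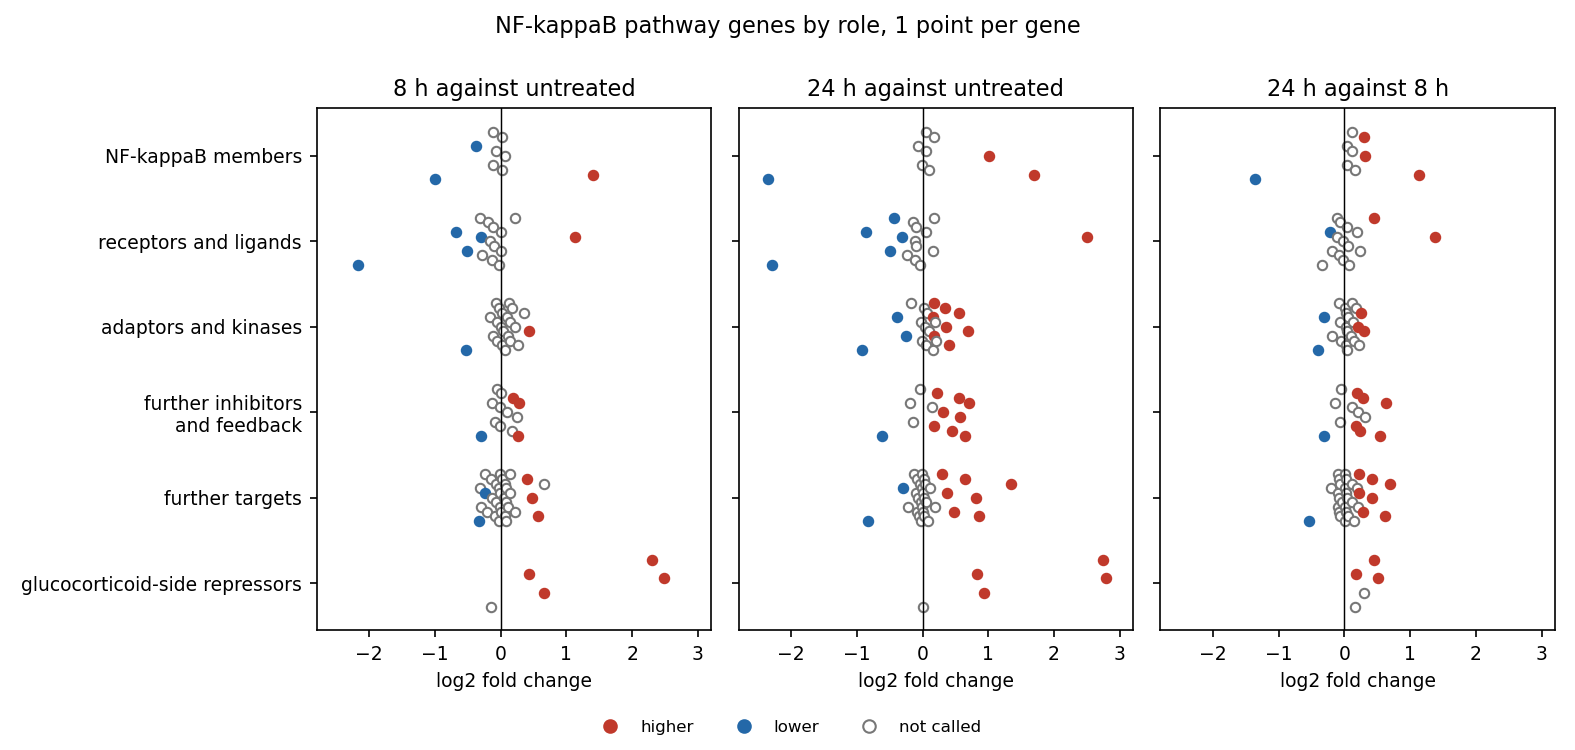
Log2 fold change (horizontal axis) of every measured gene of the 9 members and of 5 lists of further pathway genes (rows) in the 3 comparisons, with 1 point per gene and filled points for genes that passed at an adjusted p below 0.05. At 24 h against untreated cells 69.2% of the 13 further inhibitors and 28.1% of the 32 further targets passed, beside 40.5% of all genes. Of these lists 15.4% and 56.2% were dim in every group, beside 34.1% of all genes. The lists were chosen with earlier results known, so nothing is read from the difference between them, which was not tested.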

How the data were processed

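RNA of RS4;11 cells was measured on Affymetrix-type hgu133a2 arrays, which the study's methods call Agilent. The authors processed the arrays with RMA in the affy package (versions not stated), which corrects background, normalizes between arrays and summarizes probe sets, and deposited log2 values for 22277 probe sets. Group, replicate and time came from the labels. Of the probe sets, 19070 were annotated with 1 gene, 1043 with several and 2164 were not listed, and only the first were used. An update of symbols through RefSeq changed 0 names. Probe sets were averaged per gene, as the methods state. The authors' variance filter was an alternative and not the main setting, since it drops members by how they varied over these arrays.

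A limma (3.58.1, R 4.3.3) model of the 3 groups over 14 arrays and 11963 genes gave all comparisons, with Benjamini-Hochberg adjustment over all genes and a threshold of 0.05. Single probe sets were fitted likewise. Array signals hold no molecule count, so the number of arrays limits the precision. Residuals of arrays from the same run, as given by a date and letter in the labels, correlated with r of 0.299 to 0.537 in all 13 pairs. For arrays of different runs r was -0.469 to 0.473. All same-run pairs were thus positive, but the ranges overlap and do not tell pairing by run from pairing by day. The fit without a block was kept as main, since the methods name none, so its SEs and adjusted p-values leave such pairing out. With the run as a block 27.1% of all genes passed at 8 h, beside 19.7% without it. There were 28 alternatives, among them blocks for run, title number or day, within-day fits, filters, other ways to combine probe sets and each array left out.

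Named were all members, and of each pathway list up to 5 genes with the smallest adjusted p in any comparison and every glucocorticoid-side gene, not all of which are printed. The most similar genes were found for the members with the smallest adjusted p at 8 h and between 24 h and 8 h. The members and lists were chosen with earlier results of these data known.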

Additional observations from a re-analysis of the deposited data

How the results depend on the processing

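The 28 alternatives gave 753 values for the members' log2 fold changes, of which 716 kept both their sign and their side of the threshold. A further 30 changed sign but passed neither in the alternative nor in the main fit. Of the rest, 5 passed only in the alternative and 2 only in the main fit, and 0 called values changed sign. NFKBIA and CCL5 passed in all 3 comparisons under all 28, and TNFAIP3 passed under all 28 at 24 h against untreated cells and against 8 h. The calls that changed were those of TNFAIP3 at 8 h within day 1, RELB within days 2 to 4, and NFKB2 at 24 h when dim probe sets were left out or the probe set with the highest mean was used (0.26 against untreated cells and 0.23 against 8 h). With the run as a replicate block, 3 members passed at 8 h, 3 at 24 h and 4 between 24 h and 8 h, as without it, and the block changed no call of a member. The other pathway genes that passed at 8 h numbered 20 without a block (22.7%, beside 19.7% of all genes), 30 with the run or the title number as a replicate block (34.1%, beside 27.1% and 26% of all genes), and 32 with the day as a fixed block or the run as a random block (36.4%, beside 27.4% and 26.2% of all genes). The variance filter of the authors kept 8 of the 9 genes and 11 of the 15 probe sets, and NFKBIE had no value under it. Low signals limit NFKB2 and REL, since 12 of the 15 probe sets reached a log2 value of 5 in a group mean and the other 3 belong to these genes.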
